A study of Mus musculus with 2 samples.

Results

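Of the 8849 TBX5 binding peaks called in adult mouse ventricle chromatin, 26 (0.294%) had their summit in the windows of 7 genes that encode potassium channels or channel subunits with a part in cardiac repolarization. The windows were set by position on the mm9 build, in Mb: Kcnq1 on chromosome 7 from 150.24 to 150.66, Kcne1 on chromosome 16 from 92.3 to 92.38, Kcnj2 on chromosome 11 from 110.75 to 111.05, Kcnd3 on chromosome 3 from 105.2 to 105.55, Kcnip2 on chromosome 19 from 45.82 to 45.92, Kcna5 on chromosome 6 from 126.44 to 126.53 and Kcnk3 on chromosome 5 from 30.84 to 30.97. The chromatin came from cardiac ventricles of 15-week-old wild-type C57BL/6 mice, without treatment, and was immunoprecipitated with an antibody against the T-box transcription factor TBX5 or with rabbit IgG and sequenced (ChIP-seq). The labels give 2 biological replicates for each antibody, and the data used here are 1 merged list of TBX5 peaks; no value of a single replicate or of the IgG sample was analysed here. No spread between replicates therefore stands behind any value, intervals cover counting error only, and no difference between loci was tested. Whole ventricle holds several cell types, and the list does not tell in which of them a site was bound.

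The members divide by the current they carry. Kcnq1 encodes the pore subunit of the slow delayed rectifier and Kcne1 its small accessory subunit. Kcnd3 encodes a pore subunit of the transient outward current, and Kcnip2 a calcium-binding partner protein that acts on the membrane traffic and inactivation of such pores. Kcna5 encodes the pore of an ultrarapid delayed rectifier, Kcnj2 the inward rectifier that holds the resting potential and completes repolarization, and Kcnk3 an acid-sensitive tandem-pore background channel. In the adult mouse ventricle the transient outward current is among the main repolarizing currents, and the slow delayed rectifier is small. TBX5 is known for its role in heart development and in the conduction system, and the study's title places it in ventricular conduction and remodelling of the adult heart.

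Each peak carries the authors' fold over the local control level and its −log10 q. The TBX5 fragments at each summit and the local control level, in fragments per position, were recovered from the deposited fold and −log10 p, and each of the 26 sites had a single solution. Fragments are given before scaling. The fold scales them by 0.787 and adds 1 to both sides, so fragments divided by the control level do not give the fold. In the whole list the median fold was 5.52, the median −log10 q 8.15, and the median summit held 32 TBX5 fragments (range 9 to 230) over a control level of 3.5. The caller's peak numbers ran without a gap through all 7 windows, from the last peak before each to the first peak after it, so none of the 73 numbers missing from the list belongs to a site in them. No genome of the mm9 build was used here, so whether a site lies in an exon, an intron or a promoter is not stated, and no site's sequence is shown. Positions count from 1.

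TBX5 sites were spread unevenly over the 7 loci. The Kcnk3 window held 10 sites and Kcnq1 held 7, followed by Kcnd3 with 4 and Kcne1 with 3, while Kcnj2 and Kcnip2 held 1 each and Kcna5 none. Because the windows differ in length (80 to 420 kb), the order changes when the number is taken per 100 kb. The Kcnk3 window then had 7.69 sites (exact 95% Poisson interval 3.69 to 14.1), Kcne1 3.75 (0.773 to 10.96), Kcnq1 1.67 (0.670 to 3.43), Kcnd3 1.14 (0.311 to 2.93), Kcnip2 1.0 (0.0253 to 5.57) and Kcnj2 0.333 (0.00844 to 1.86). The empty Kcna5 window had 0, with an interval of 0 to 4.10. The autosomes as a whole had 0.368 peaks per 100 kb. With the windows as set, the interval of Kcnk3 lay above those of Kcnq1, Kcnd3 and Kcnj2 and overlapped those of Kcne1, Kcnip2 and Kcna5. With all windows widened by 50 kb on each side, the density was 4.35 at Kcnk3 and 1.67 at Kcne1. It was then 1.35 at Kcnq1, 1.11 at Kcnd3 and 0.5 at Kcnj2. No intervals were computed for the widened windows, so whether Kcnk3 stays apart from these 3 there was not tested. The intervals of the windows as set treat sites as independent, which sites that lie in groups are not.

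**Figure D1:**
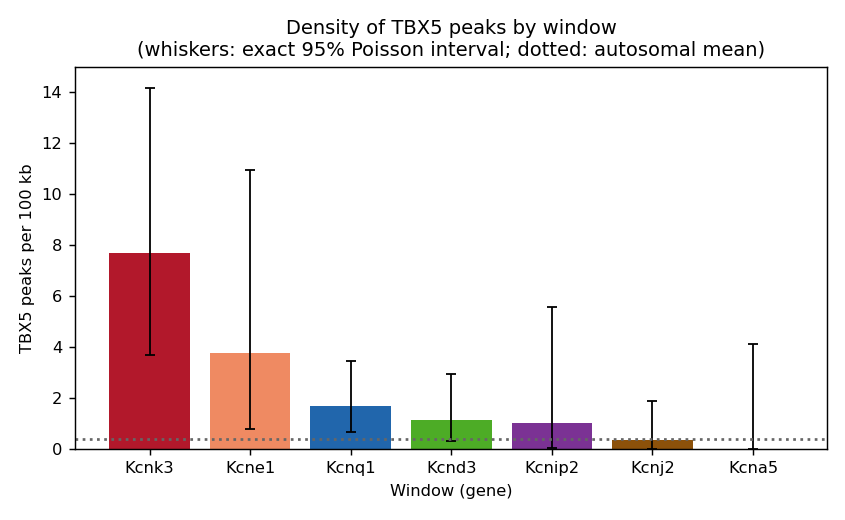
TBX5 peaks per 100 kb (vertical axis) in each gene's window, with exact 95% Poisson intervals as whiskers and the autosomal mean of 0.368 as the dotted line. Kcnk3 stands highest at 7.69, Kcnj2 lies near the autosomal mean at 0.333, and Kcna5 has no peak, with a whisker that reaches 4.10 and overlaps that of Kcnk3.

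For scale, the autosomes were divided into successive stretches as long as each window. Of 18881 stretches of 130 kb, 12 (0.0636%) held 10 or more peaks, the number at Kcnk3. At least 3 peaks, as at Kcne1, were found in 2.31% of stretches of 80 kb, and at least 7, as at Kcnq1, in 4.44% of those of 420 kb. The 4 sites at Kcnd3 were reached in 11.3% of stretches of 350 kb. A single site, as at Kcnip2 and Kcnj2, was reached in 21.5% of stretches of 100 kb and 42.7% of those of 300 kb. An empty stretch of 90 kb, as at Kcna5, was the usual case (80.2%). The stretches include long parts of the genome without genes, whereas each window was drawn around a gene, so these shares describe the list and are no test.

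The Kcnk3 locus carried the strongest of the 26 sites. It spans 646 bp on chromosome 5 from 30879454 to 30880099, and its summit held 164 TBX5 fragments (95% Poisson interval 140 to 191). With a control level of 5 its fold was 21.7, and its −log10 q was 123.7. It ranked 54th of the list by −log10 q, 44th by fragments and 139th by fold. Its fragment interval did not overlap that of any of the other 25 sites, of which the highest count was 62, at Kcnip2. It alone made up 42.6% of the 385 fragments summed over the summits of the Kcnk3 window.

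The other 9 Kcnk3 sites were of modest height, with 19 to 33 fragments over control levels of 2.025 to 7. Their folds ran from 2.88, at the site from 30907174 to 30907580, to 5.39, at the site from 30908882 to 30909013, all below the list's median of 5.52. Counting intervals of their fragments overlapped one another, from 19 (11.4 to 29.7) to 33 (22.7 to 46.3), so these 9 sites have no settled order. Going along the chromosome from the first site, which starts at 30876839, the strong site came second, 2.885 kb on. The next summits followed at steps of 9.46, 0.523, 6.10, 11.4, 1.67, 7.815, 14.4 and 20.5 kb, and the last site ended at 30951817. The pair 0.523 kb apart lay from 30889113 to 30889275, with 19 fragments, and from 30889620 to 30889828, with 24. Whether sites this close are parts of 1 enriched region was not tested.

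Peaks were joined into groups at 1 fixed distance, under which Kcnk3 summits 11.4 kb apart were joined and those 14.4 kb apart were not. The first 8 Kcnk3 sites then formed 1 group of 40.0 kb, and the last 2 stood alone. This group depends on the distance chosen: at 5 kb it falls apart, and at 25 kb the last 2 sites join it. Groups of 8 or more numbered 10 in the whole list, and 143 groups held 4 or more. Most of the Kcnk3 sites were weak by the list's own standard: 2 of the 10 had a −log10 q at or above the list's median, the strong site and the site from 30908882 to 30909013 with 8.94. Counted at that threshold the Kcnk3 window held fewer sites than Kcnq1, which kept 3. Its density was then 1.54 per 100 kb, below its interval for all sites of 3.69 to 14.1. That was still the highest of the 7, before Kcne1 with 1.25, Kcnip2 with 1.0, Kcnq1 with 0.714 and Kcnd3 with 0.571. It rests on 2 sites against 1 each at Kcne1 and Kcnip2, so this order is not settled.

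**Figure D2:**
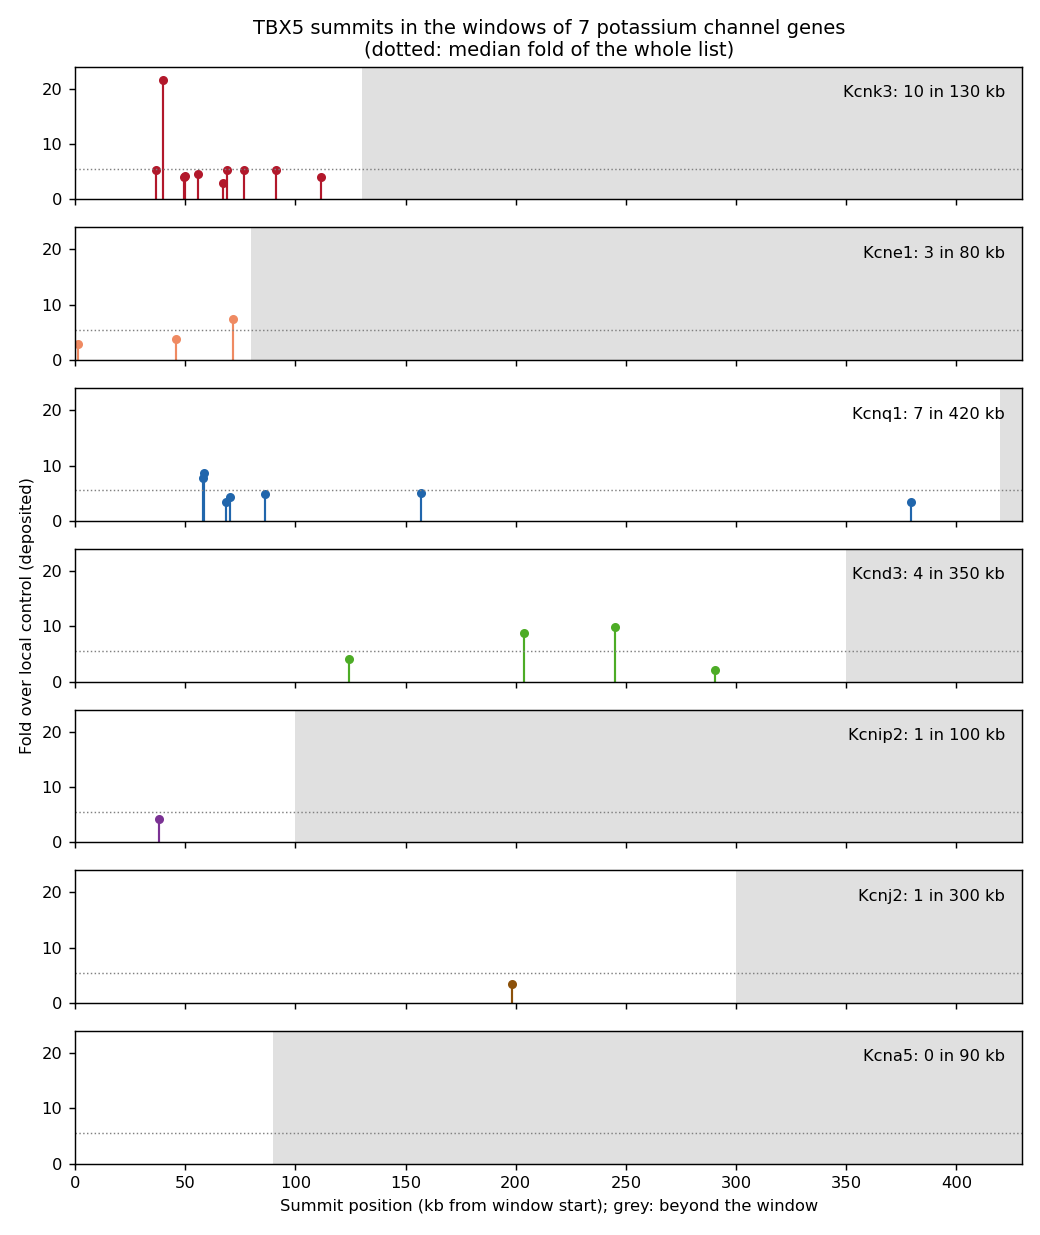
Position of each TBX5 summit within its window (horizontal axis, kb from the window's start) and its deposited fold over the local control (vertical axis), 1 panel per gene, with grey beyond the end of the window. The dotted line is the list's median fold of 5.52; the tall stem at Kcnk3 is the site of fold 21.7, and the other 9 Kcnk3 stems stay below the line.

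At Kcnq1, the slow delayed rectifier's pore gene, sites gathered in the first part of the window. The strongest was 540 bp wide, on chromosome 7 from 150298120 to 150298659, with 43 fragments (31.1 to 57.9), a control level of 3, a fold of 8.71 and a −log10 q of 19.4. A second site lay 0.672 kb before it, from 150297756 to 150297990, with 30 fragments (20.2 to 42.8) over 2.15 and a fold of 7.81. The 2 intervals overlap. They formed a group of 4 peaks over 12.8 kb with the sites that start at 150308225 (fold 3.47) and 150310227 (fold 4.40).

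The remaining Kcnq1 sites stood apart from that group. The site from 150325949 to 150326169 had as many fragments as the strongest one within counting error, 42 (30.3 to 56.8), but a control level of 6 and a fold of 4.86. A site from 150396830 to 150397020 rested on 18 fragments over a control level of 2. Then 222.5 kb passed without a peak before the last site, from 150619300 to 150619538, with 29 fragments over 6 and a fold of 3.40. The 7 sites together held 222 fragments, of which the highest gave 19.4%, so signal at Kcnq1 was shared among its sites more evenly than at Kcnk3.

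At Kcne1, the accessory subunit of the same current, 3 sites lay 44.25 and 26.2 kb apart and none had a neighbour within the joining distance. The site of highest −log10 q, 10.5, was on chromosome 16 from 92371782 to 92371977, with 25 fragments (16.2 to 36.9), a low control level of 1.75 and a fold of 7.51. The site from 92345605 to 92345825 held more fragments, 43 (31.1 to 57.9), but its control level was 8 and its fold 3.87. The site from 92301300 to 92301487 had 35 fragments (24.4 to 48.7) over 9, a fold of 2.85. By fragments the middle site thus came first and by fold the last one did. The first site's summit lay 1.45 kb inside the window's edge.

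At Kcnd3, which encodes a pore subunit of the transient outward current, 4 sites were spaced 41.7 to 79.1 kb apart, each alone. The site of highest −log10 q, 24.4, on chromosome 3 from 105403458 to 105403687, had 54 fragments (40.6 to 70.5), a control level of 4 and a fold of 8.70. The site from 105445176 to 105445356 had the higher fold, 9.88. It held 27 fragments (17.8 to 39.3), and its control level of 1.25 was close to the genome background of 1.18. With the control levels held fixed, counting error put these folds between 6.58 and 11.3 and between 6.66 and 14.2, so the 2 are not told apart by fold. The fold of 9.88 was the second highest of the 26 sites, after the strong site of Kcnk3.

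The other 2 Kcnd3 sites were weaker. The site from 105324321 to 105324490 had 35 fragments (24.4 to 48.7), a control level of 6 and a fold of 4.08. The site from 105490344 to 105490591 had 45 fragments (32.8 to 60.2), but its control level was 17, the 41st highest of the list. Its fold of 2.02 was the lowest of the 26 and among the 12 lowest of all peaks, and no listed peak at that control level had fewer fragments.

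At Kcnip2, the partner subunit of the transient outward channel, a single narrow site of 132 bp lay on chromosome 19 from 45858092 to 45858223. It held 62 fragments (47.5 to 79.5), more than any of the 26 sites but the strong one at Kcnk3. Its control level was also high, at 11, so its fold was 4.15 (3.20 to 5.29 from counting error of the TBX5 fragments) and its −log10 q 12.6. It ranked 1057th of the list by fragments and 6648th by fold.

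Kcnj2, the inward rectifier gene, had 1 site in 300 kb, on chromosome 11 from 110948145 to 110948312. It held 16 fragments (9.15 to 25.98), with a control level of 3, a fold of 3.40 and a −log10 q of 1.73. This was the fewest of the 26 sites. Among the 991 listed peaks at that control level none had fewer, though others had as few, so the site sits at the list's own limit. The same or a higher −log10 q was found at 98.1% of the list.

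At Kcna5, the ultrarapid delayed rectifier gene, no summit fell in the 90 kb window. The nearest peaks lay 67.9 kb before it (chromosome 6 from 126372057 to 126372196, 21 fragments, fold 6.67) and 402.0 kb after it (from 126931952 to 126932098, 12 fragments, fold 3.48). An empty window shows that no site passed the caller's threshold, not that TBX5 was absent. The shallowest listed peaks held 10 fragments at the genome background, 12 at a control level of 2 and 21 at a level of 5, and no site with fewer fragments at those levels is in the list.

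**Figure D3:**
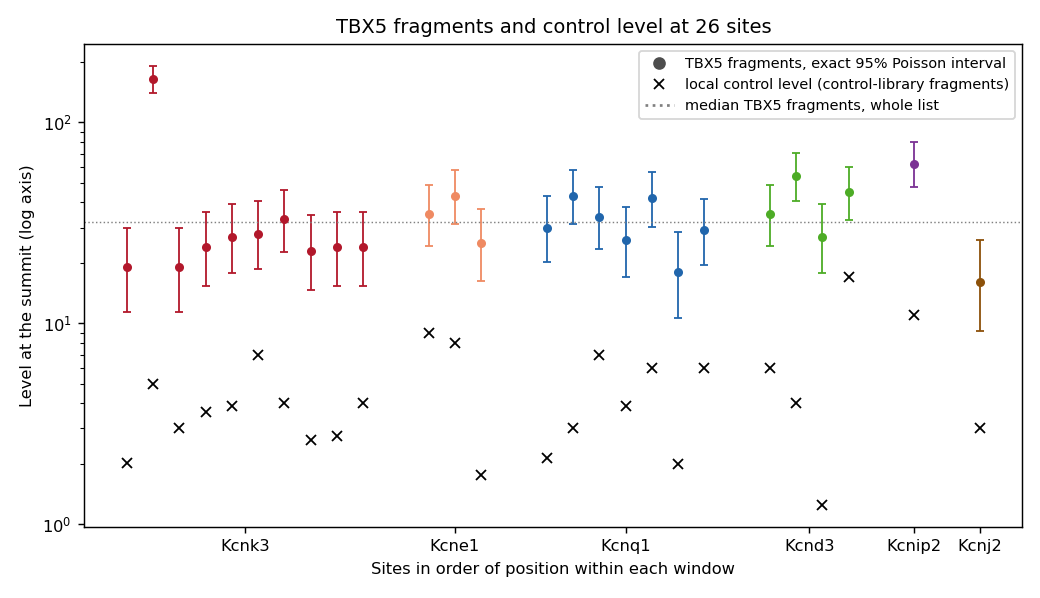
TBX5 fragments at each summit (coloured points, with exact 95% Poisson intervals) and the local control level (crosses) on a log axis, with sites in order of position within each window. Fragments are shown before the scaling by 0.787 that the fold applies. The strong Kcnk3 site at 164 fragments lies above every other interval, most sites lie near the list's median of 32 (dotted), and the Kcnip2 site of 62 fragments and the last Kcnd3 site have the highest crosses, at 11 and 17.

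Compared by the site of highest −log10 q at each locus, the order by fragments was Kcnk3 with 164, Kcnip2 with 62, Kcnd3 with 54, Kcnq1 with 43, Kcne1 with 25 and Kcnj2 with 16. Kcnk3 stood clear of the rest. Among Kcnip2, Kcnd3 and Kcnq1 the neighbouring intervals overlapped, and so did those of Kcnq1 and Kcne1 and of Kcne1 and Kcnj2. By fold the order was Kcnk3 with 21.7, Kcnq1 with 8.71, Kcnd3 with 8.70, Kcne1 with 7.51, Kcnip2 with 4.15 and Kcnj2 with 3.40. With control levels held fixed, the fold intervals of Kcnq1 (6.37 to 11.6), Kcnd3 (6.58 to 11.3) and Kcne1 (4.99 to 10.9) overlapped. Those of Kcne1, Kcnip2 (3.20 to 5.29) and Kcnj2 (2.05 to 5.36) did too, so only the first place by fold stood clear of counting error. The Kcnk3 site was the highest of 10, whereas Kcnip2 and Kcnj2 held 1 site each, and no difference between loci was tested. Kcnip2 moved from the second place to the fifth, and its control level, which stands in the denominator of the fold, was the highest of these 6 sites. By −log10 q the order was Kcnk3 with 123.7, Kcnd3 with 24.4, Kcnq1 with 19.4, Kcnip2 with 12.6, Kcne1 with 10.5 and Kcnj2 with 1.73. Kcnk3 was first and Kcnj2 last in all 3 orders.

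By median fold the 26 sites were somewhat weaker than the whole list, though some of them ranked high in it. The median fold over all 26 was 4.48 against 5.52, and the median summit held 28.5 fragments over a control level of 3.94, against 32 over 3.5. The 95% intervals of the median fragments (24 to 35) and control level (3 to 6) hold the list's values. Outside Kcnk3 the 16 sites had a median fold of 4.27. Their median of 34.5 fragments was above the list's, over a control level of 5. Only 1 site, the strong one at Kcnk3, reached 10-fold, whereas 13.7% of all peaks did. Without the pseudocount of 1 that the deposited fold carries, 6 sites and 29.4% of all peaks did. Folds under 3 were found at 3 sites (11.5%), 1 each at Kcne1, Kcnd3 and Kcnk3, against 6.29% of all peaks. The list was cut by −log10 q into 4 parts of nearly equal size, and from the lowest to the highest these held 9, 8, 6 and 3 of the 26 sites. The 3 in the highest part were the strongest sites of Kcnk3, Kcnd3 and Kcnq1. Control levels of 3 or more were found at 19 sites, 73.1%, against 64.4% in the list.

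Grouping was uneven among the loci. Of the 26 sites 12 (46.2%) had another peak within the joining distance, against 36.5% of all peaks. All 12 lay at Kcnk3 (8) and Kcnq1 (4), and the sites of Kcne1, Kcnd3, Kcnip2 and Kcnj2 had none. Outside Kcnk3, 4 of 16 sites had a neighbour. With a joining distance of 5 kb, 10 of the 26 sites had a neighbour, against 23.9% of all peaks. With 25 kb, 15 of them did, against 48.4%. The median width was 202.5 bp against 202 in the list. The widest were the strongest sites of Kcnk3 (646 bp) and Kcnq1 (540 bp), followed by the Kcnk3 site of lowest fold (407 bp).

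**Figure D4:**
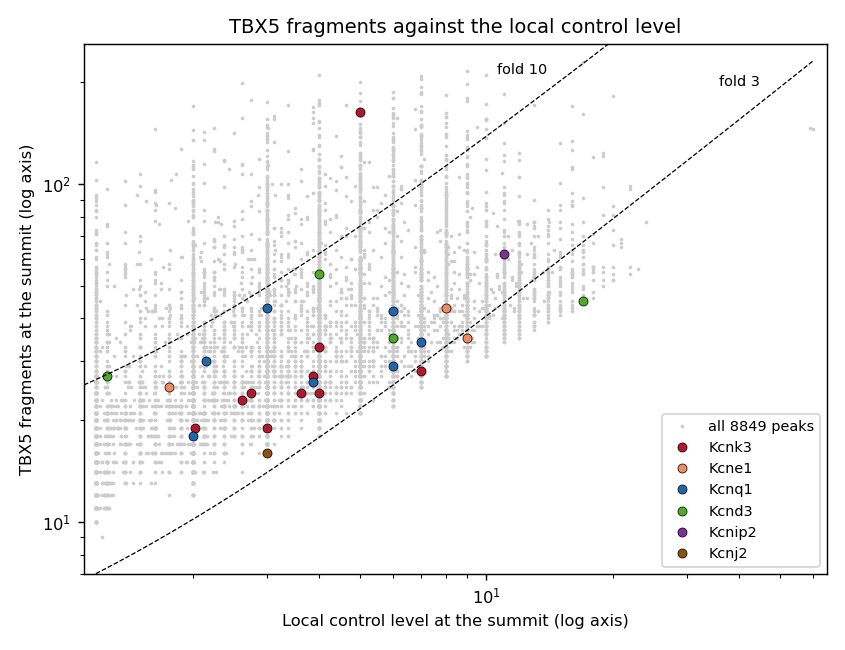
TBX5 fragments (vertical) against the local control level (horizontal), both on log axes, for all 8849 peaks (grey) and the 26 sites (coloured by gene), with dashed lines at deposited folds of 3 and 10. The strong Kcnk3 site is the only coloured point above the upper line, 3 sites lie under the lower line, and the Kcnip2 site has many fragments but lies well below a fold of 10 because its control level is 11.

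Sites just outside the windows show what the edges decide. Past the Kcnj2 window, at 26.5 kb, a peak on chromosome 11 from 111076328 to 111076685 reached a fold of 13.3 with 56 fragments (42.3 to 72.7), and before that window the nearest lay 389.9 kb away (fold 4.58). Before the Kcnd3 window, at 43.6 kb, a peak on chromosome 3 from 105156273 to 105156529 reached a fold of 14.8 with 55 fragments (41.4 to 71.6), and the nearest one after it, at 69.2 kb, had a fold of 3.66. The folds of 13.3 and 14.8 are above those of every site inside their window. Past the Kcnip2 window, at 10.1 kb, lay a peak from 45929953 to 45930129 with a higher fold than the site inside, 5.28, but with fewer fragments, 39, and a lower −log10 q, 10.6. The nearest peak before Kcnip2 lay 149.4 kb away and had the same fold of 5.28. At Kcne1 the nearest peaks had folds of 10.1, 72.1 kb after the window, and 5.52, 215.9 kb before it, against 7.51 at most inside. At Kcnq1 they had folds of 9.30, 113.7 kb after the window, and 2.93, 520.9 kb before it, against 8.71 at most inside. At Kcnk3 the nearest were 75.6 kb before (fold 4.62) and 283.5 kb after the window (fold 3.99).

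The windows were not checked against an annotation of the mm9 build, and a window can hold more than its gene. In the RefSeq table of assembly GRCm38.p6, used only for gene order, the nearest protein-coding genes on either side are Cib4 and Slc35f6 for Kcnk3, Trpm5 and Cdkn1c for Kcnq1, Smim34 and Rcan1 for Kcne1, 4930564D02Rik and Ddx20 for Kcnd3, Oga and Armh3 for Kcnip2, Ntf3 and Kcna1 for Kcna5, and Kcnj16 and Gm11677 for Kcnj2. Kcna1 and Kcnj16 encode potassium channels too. Which of these genes a site belongs to was not tested, and the list holds no expression values. RefSeq promoters of that assembly, from 250 bases before to 50 after the start, were at hand for 4 members (Kcnj2, Kcnd3, Kcnip2 and Kcna5). The T-box letters AGGTGT were on neither strand in all 4, and 13.7% of all 32851 promoters hold them. The longer form AGGTGTGA, which contains the former, was absent there too and is held by 1.28% of promoters. No match says only that these letters are not in this stretch, and no peak could be placed relative to it.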

How the data were processed

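ChIP-seq with an antibody against TBX5 was done on ventricle chromatin fixed with 2% formaldehyde, per the labels' protocols. The submitters' processing notes name mm9 as the build, MACS2 (2.1.1.20160309.0), Bowtie2 (2.2.6.2) and FastQC (0.10.0). The control library, caller settings and merging of replicates were not given in the labels or file. The list deposited by the authors holds their fold (a ratio over the local control level), −log10 p, −log10 q and score.

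Members and lists were chosen with earlier results of these data known. Summits (start plus offset) were assigned to 7 fixed windows. Values are printed for the site of highest −log10 q of each window, sites at a fold of 10 or more and all sites of windows with 4 or fewer; the sites of Kcnq1, and those named at Kcnk3 and beyond the windows, were picked after their values were seen. TBX5 fragments and the control level were solved from fold = (scaled pileup + 1) / (control level + 1) and the Poisson tail, with 1 scale (0.787) and a genome background of 1.18, for all 8849 peaks within 0.005 of −log10 p. A second solution existed for 240 peaks, none of them a member, and the closer was taken. The recovery was tested on simulated data. Fragments carry no molecular identifiers, so intervals cover counting error only. Tools were pandas 2.3.3, scipy 1.17.1, numpy 2.4.6 and matplotlib 3.10.9 under Python 3.11.15. Alternatives changed the threshold, merging, window edges, ranking, joining distance and pseudocount.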

Additional observations from a re-analysis of the deposited data

How the results depend on the processing

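Of 66 alternative values, 54 stayed within a factor of 1.5 (counts) or the 95% interval (densities and medians) and 12 did not; no direction was tested. With peaks at or above the list's median −log10 q only, which by construction removes about as many peaks as it keeps, the windows held 9 sites in place of 26 (0.612 per 100 kb in place of 1.77): 3 at Kcnq1, 2 at Kcnk3, 2 at Kcnd3, 1 at Kcne1, 1 at Kcnip2 and 0 at Kcnj2. The density was then 1.54 per 100 kb at Kcnk3, below its main interval of 3.69 to 14.1, and 0 at Kcnj2. Kcnk3 was still the highest, but on 2 sites, so its lead is not settled. With windows widened by 50 kb on each side, Kcnj2 and Kcnip2 held 2 sites each in place of 1, and the density was 4.35 in place of 7.69 at Kcnk3 and 1.67 in place of 3.75 at Kcne1, both within the wide intervals of the main values. Without the pseudocount of the deposited fold, 6 sites in place of 1 reached a ratio of 10, as did 29.4% of the list in place of 13.7%. The site taken as strongest changed at Kcnd3 when ranked by fold and at Kcne1 when ranked by fragments. The medians without the strongest site were an alternative chosen after seeing the data and stayed within their interval. No paired analysis was possible because the replicates were merged into 1 list, and no replicate could be left out. Depth limits the weak end: sites under the caller's threshold are not in the list.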
